A study of Mus musculus with 78 samples.

Results

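Astrocyte genes were followed across 7 brain regions of drinking mice with and without Acss2. The 31 members were a fixed list of genes widely used to recognise astrocytes. Each of the 31 was found by its symbol in both deposited count tables, which list 55367 genes. No measured value from these libraries entered the rule, although the list was drawn up with other results of these data known.

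Poly(A) RNA was sequenced from amygdala, cortex, dorsal hippocampus, dorsal striatum, prefrontal cortex, ventral hippocampus and ventral striatum, in 78 libraries from 12 adult C57Bl6/J mice. Knockout mice (KO, 40 libraries) carried a constitutive Acss2 deletion, made with a pair of CRISPR/Cas9 guides in the introns around exon 3 to exon 7, in lines backcrossed for 3 generations. Wild-type mice (WT, 38 libraries) lacked it, and each sex and genotype had 3 mice. Every mouse of both genotypes was housed singly and drank 15% ethanol in drinking in the dark, in limited sessions of 2 h on days 1 to 3 and of 4 h on day 4, with ethanol as the only bottle in the following week. No ethanol-free mice were among the samples, and the deletion is present in all cell types, so nothing here isolates astrocytes. Acss2 encodes the enzyme that turns acetate, an end product of ethanol breakdown, into acetyl-CoA.

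Astrocytes clear glutamate and GABA from synapses, buffer potassium and water at their endfeet, couple to each other through gap junctions, store glycogen and secrete lipoproteins and matrix proteins. Their transcripts differ between brain regions, and GFAP, the filament protein used to stain them, is known to be abundant in hippocampal astrocytes and sparse in many striatal and cortical ones. In bulk tissue, fewer astrocytes and less RNA per astrocyte cannot be told apart.

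The promoters shown are those of 4 members with wide regional ranges, chosen after the values were seen. Other members with a wide range, such as Vim, are not shown. Of the 31 members, 27 had an entry among the RefSeq promoters (GRCm38.p6), and Aqp4, Sparcl1, Clu and Sox9 did not. Each sequence is the 250 bases upstream of a transcription start, 5′ to 3′ on the gene's strand. Capitals mark matches on either strand to TTCNNNGAA, a palindrome recognised by STAT factors, and to TATAAA, the TATA box. The windows are chr11:102897201-102897450 (minus strand) for Gfap, chr8:124569707-124569956 (minus strand) for Agt, chr13:48260866-48261115 (plus strand) for Id4 and chr6:114130991-114131240 (plus strand) for Slc6a11.
Gfap: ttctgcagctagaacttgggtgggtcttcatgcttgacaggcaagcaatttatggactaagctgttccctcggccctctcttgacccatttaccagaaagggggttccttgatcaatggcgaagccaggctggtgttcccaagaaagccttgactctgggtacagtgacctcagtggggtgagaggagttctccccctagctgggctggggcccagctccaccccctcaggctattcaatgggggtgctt
Agt: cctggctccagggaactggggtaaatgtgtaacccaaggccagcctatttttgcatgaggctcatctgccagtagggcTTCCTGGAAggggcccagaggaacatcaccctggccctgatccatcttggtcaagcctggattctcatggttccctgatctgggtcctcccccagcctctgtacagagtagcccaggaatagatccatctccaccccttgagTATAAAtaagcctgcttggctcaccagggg
Id4: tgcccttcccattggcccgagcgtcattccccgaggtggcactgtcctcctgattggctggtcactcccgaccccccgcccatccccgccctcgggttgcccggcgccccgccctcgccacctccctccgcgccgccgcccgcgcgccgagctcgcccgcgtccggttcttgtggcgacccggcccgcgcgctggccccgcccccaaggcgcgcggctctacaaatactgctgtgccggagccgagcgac
Slc6a11: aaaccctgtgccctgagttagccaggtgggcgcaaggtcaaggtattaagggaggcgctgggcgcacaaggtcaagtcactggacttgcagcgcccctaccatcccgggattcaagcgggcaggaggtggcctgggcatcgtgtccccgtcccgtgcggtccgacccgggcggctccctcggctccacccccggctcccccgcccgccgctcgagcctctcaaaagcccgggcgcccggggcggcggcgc

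The Id4 and Slc6a11 windows held 35 and 25 CpG dinucleotides, while those of Gfap and Agt held 2 and 0. The median was 8 over the 27 members and 6 over all 32851 starts. The Agt window held a TTCNNNGAA match that began 172 bases before the start and a TATAAA match that began 30 bases before it. TTCNNNGAA was found for 6 of the 27 members (Acsbg1, Agt, Ntsr2, Pla2g7, Slc1a3 and Slc7a11), in 6 of the members' 36 starts and in 7.02% of all starts. TATAAA was found for 5 (Agt, Apoe, Ndrg2, Slc1a3 and Vim), in 5 of the members' 36 starts and in 12.4% of all starts. The full palindrome of NFI factors, searched on both strands, was found for 0 members and in 0.0365% of starts. A match is a description of these letters and not of a bound site.

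Depth split the regions into a deeper set (amygdala, dorsal hippocampus, dorsal and ventral striatum, 4454420 to 14487778 counts a library) and a shallower set (cortex, prefrontal cortex, ventral hippocampus, 629635 to 1228828 counts). The set and the depth cannot be told apart, so regions were compared only within a set. A floor of 3 counts equals 0.207 to 0.673 CPM (a gene's count scaled by its library's total) in the deeper set and 2.44 to 4.76 CPM in the shallower set, and covers counting error only. Acss2 itself matched its labels: 40 KO libraries ranged from 0.971 to 13.96 CPM (median 7.32) and 38 WT libraries from 35.9 to 73.8 CPM (median 51.8). Sex-chromosome genes went against the label in 1 library, labelled female WT prefrontal cortex mouse 23.

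Region markers went against the label in 7 libraries, by limits set after the values were seen (a striatal score under 7 in a library labelled striatum or of 8 or more in another, or a cortex score within the range of the cortex libraries in amygdala). The striatal score is the mean log2(CPM + 1) of 7 striatal neuron genes, and it was over 8 in every other striatal library. Dorsal striatum libraries of female WT mouse 23 and male KO mouse 10 scored 3.75 and 4.88. Ventral striatum libraries of male WT mouse 13, male KO mouse 10 and female WT mouse 11 scored 4.97, 6.15 and 6.87. An amygdala library (female WT mouse 23) had a cortex score of 6.80, against at most 5.35 in the other amygdala libraries, and a ventral hippocampus library (female KO mouse 6) had a striatal score of 8.33. Outside striatum the limit kept libraries with lower but raised striatal scores. Prefrontal libraries of female KO mouse 5 and male KO mouse 1 scored 7.48 and 6.85, and the amygdala library of female KO mouse 6 scored 7.20. Fits without the 7 still hold them. Counts of members that passed the joint test, or were higher or lower in a region, are given with and without all 7. KO counts by region are given with and without those of the region. Counts by role, of further gene lists, by sex, of sex by genotype differences and from sums per mouse include all libraries. For single members, a value after "without" in parentheses comes from the fit that leaves out the libraries against their labels. Joint tests of single members and values by library include all libraries.

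All 31 members were detected, at levels that ranged widely when divided by exonic length. Apoe, the main lipid carrier of the brain, stood highest at a mean of 761 CPM per kb over the 78 libraries. Sparcl1, a secreted protein that promotes synapse formation, followed at 729 CPM per kb, and Glul, glutamine synthetase, at 566 CPM per kb. The lowest were Slc7a11, the cystine-glutamate exchanger, at 2.82 CPM per kb, and Slc6a13, a GABA and taurine transporter best known from the meninges, at 1.91 CPM per kb. Slc6a13 was under the 3-count floor in 8 libraries and Agt in 3. Exons of 7 members (Slc1a2, Glul, Slc7a10, Aldh1l1, Pla2g7, Id4 and Fgfr3) overlap a gene on the other strand, and the library kit does not mark strand.

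Most members differed between regions, but no more often than other genes in the deeper set. In the joint test, 24 of 31 members passed among the 4 deeper regions, where 76.6% of all tested genes did. Among the 3 shallower regions 25 of 31 passed, where 50.8% of all tested genes did. The region means of 3 members (Gfap, Agt and Vim) spread over at least 1 log2 unit in the deeper set, against 16.1% of all genes. In the shallower set 4 members did so (Gfap, Agt, Vim and S100b), against 8.54% of all genes. Without the 7 libraries the joint counts were 26 of 31 (all genes 80.4%) and 25 of 31 (all genes 51.3%).

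Dorsal and ventral hippocampus were the high regions for this list. Against the mean of the other regions of its set, dorsal hippocampus was higher for 16 members and lower for 2, where 26.4% of all genes were higher and 25.5% lower. Ventral hippocampus was higher for 15 and lower for 0, where 13% of all genes were higher and 12.9% lower. The median member difference was 0.25 on the log2 scale in dorsal and 0.21 in ventral hippocampus, beside -0.01 and 0.01 over all genes. Without the 7 libraries the counts were 17 higher and 2 lower in dorsal hippocampus (all genes 27.1% and 28.4%), and 15 and 0 in ventral hippocampus (all genes 13.3% and 12.7%).

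Prefrontal cortex was the low region of the shallower set when both genotypes were fitted together. It was lower for 17 members and higher for 3, where 17.2% of all genes were lower and 18.1% higher, and its median member difference was -0.29. Without the 7 libraries it was lower for 16 and higher for 4 (all genes 16.9% and 18.2%). The 7 include no prefrontal library, yet striatal scores there were 5.87 to 7.48 in the 4 KO and 3.61 to 4.70 in the 4 WT libraries. The part of this in the low prefrontal values was not tested. The lower count was smaller with WT libraries only, a fit of fewer libraries given in the closing section.

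Ventral and dorsal striatum were close to each other with all libraries, at median member differences of -0.12 and -0.11, and each was the lowest region of 9 members. Ventral striatum was lower for 9 and higher for 3, where 20.3% of all genes were lower and 20.8% higher. Without the 7 libraries it was lower for 17 and higher for 1 (all genes 21.4% and 20.1%). The lower count rose on leaving out 3 ventral striatum libraries and 3 of the other deeper regions. Dorsal striatum was higher for 6 and lower for 7 (all genes 24.4% and 24.2%), and 7 and 4 without the 7 libraries (all genes 29.8% and 24.6%).

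Cortex was higher for 11 members and lower for 7 (all genes 19.4% and 18%), and also 11 and 7 without the 7 libraries (all genes 19.4% and 18.8%). Amygdala was higher for 4 and lower for 6 (all genes 25.3% and 23.5%), and 5 and 5 without the 7 libraries (all genes 26.9% and 25.5%).

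**Figure D1:**
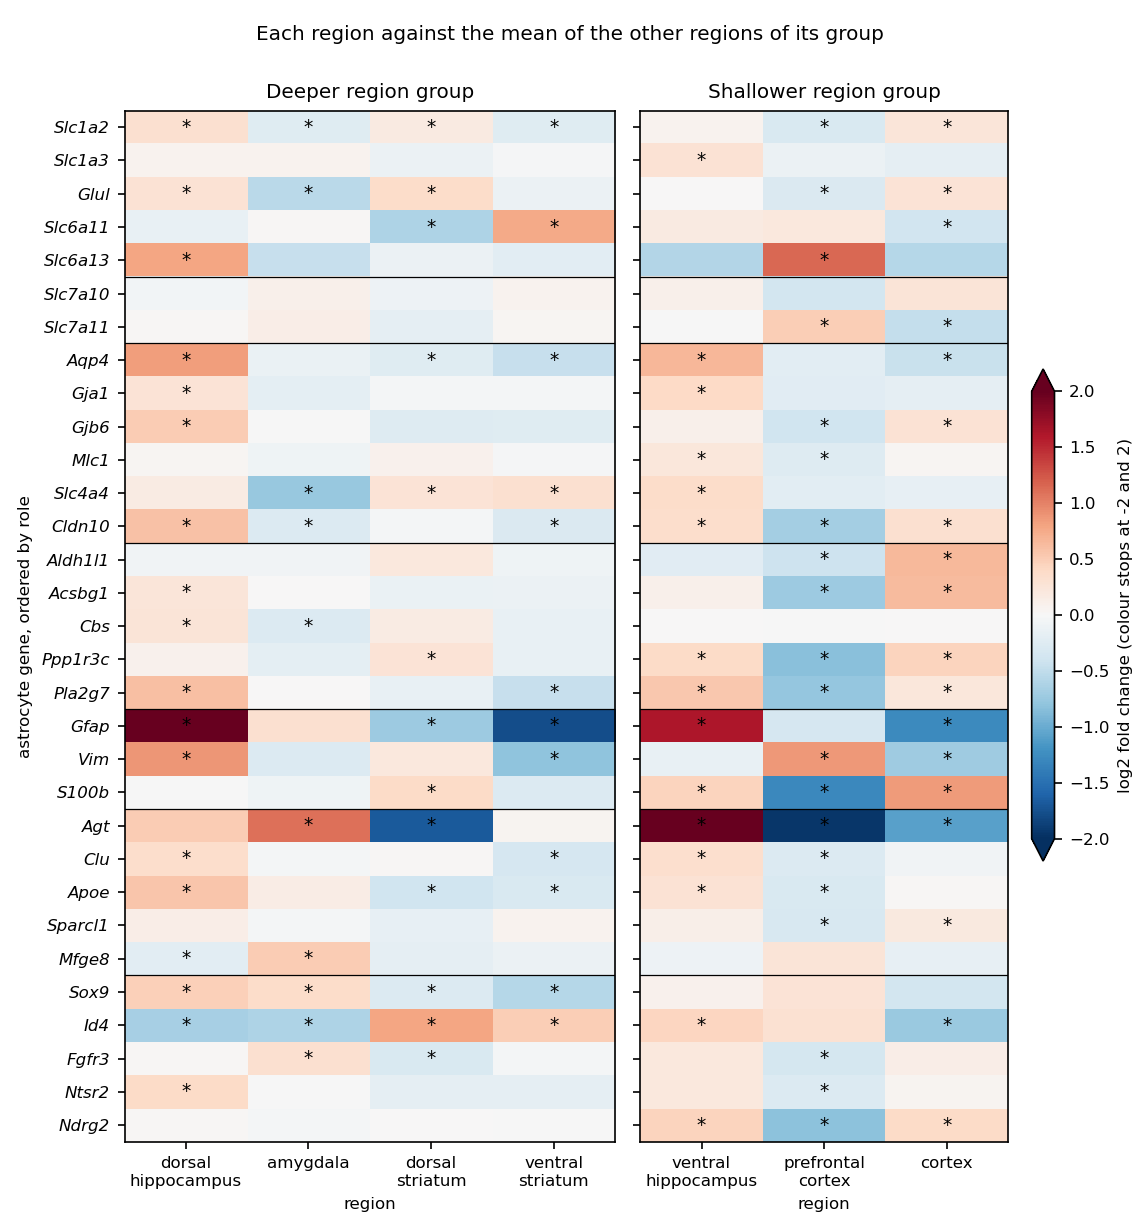
Difference of each of the 31 astrocyte genes in each region from the mean of the other regions of its set, on the log2 scale, with stars at an adjusted p under 0.05. Colours stop at -2 and 2; the dorsal and ventral hippocampus columns hold 16 and 15 members that were higher, and prefrontal cortex holds 17 that were lower.

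Among the filament and calcium-binding genes, Gfap had the widest regional range of the list in the deeper set. Gfap was lowest, median and highest at 401, 530 and 742 CPM in dorsal hippocampus and at 31.4, 206 and 397 CPM in amygdala. In dorsal striatum it was 46.3, 122 and 271 CPM, and in ventral striatum 21.2, 58.9 and 155 CPM. All 12 dorsal hippocampus libraries stood above every library of the other 3 deeper regions, while those 3 overlapped each other.

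Gfap was higher in dorsal hippocampus than in the other deeper regions by 2.19 ± 0.23 (log2 ± SE, adjusted p = 6.7e-11, without 2.31). It was lower in ventral striatum by the same kind of contrast, at -1.78 ± 0.28 (adjusted p = 2.5e-06). Dorsal hippocampus exceeded ventral striatum 7.85-fold, in 12 of 12 mice that gave both, and 11.7-fold in the fit without the 7 libraries. Without the 7 libraries, ventral striatum stood at -2.41 (adjusted p = 1.5e-08) and dorsal striatum no longer passed, at -0.42 (adjusted p = 0.13) in place of -0.73 ± 0.26 (adjusted p = 0.018). Between the striatal regions, dorsal minus ventral went from 0.79 (adjusted p = 0.079) to 1.49 (adjusted p = 0.0006).

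In the shallower set Gfap was 250, 481 and 726 CPM in ventral hippocampus, 118, 211 and 287 CPM in prefrontal cortex and 61.6, 128 and 169 CPM in cortex. Every ventral hippocampus library stood above every cortex library, and prefrontal cortex overlapped both. Ventral hippocampus was higher by 1.62 ± 0.13 (adjusted p = 2.4e-11, without 1.64) and cortex lower, at -1.28 ± 0.15 (adjusted p = 2.6e-08, without -1.30). The order was ventral hippocampus, prefrontal cortex, cortex.

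Vim, the partner filament that is also made by vascular and ependymal cells, did not follow Gfap everywhere. Vim was 28.2, 51.2 and 85.9 CPM in dorsal hippocampus and 18.3, 21.6 and 30.4 CPM in ventral striatum. It was higher in dorsal hippocampus by 0.88 ± 0.14 (adjusted p = 1.2e-06, without 0.88), and 11 of 12 libraries there exceeded every ventral striatum library. In the shallower set its high region was prefrontal cortex at 39.9, 70.8 and 88.9 CPM, against 21.1, 27 and 53.9 CPM in cortex. Prefrontal cortex exceeded cortex 2.08-fold (adjusted p = 6.4e-05, without 2.08), in 7 of 7 mice that gave both regions. Markers of other cells were also higher there: the mean log2(CPM + 1) in prefrontal cortex and cortex was 3.04 and 2.08 for meningeal fibroblasts, 4.34 and 3.85 for mural cells and 1.54 and 0.91 for ependyma. Their part in the Vim difference was not tested. S100b, a calcium-binding protein, went the opposite way there: 136, 188 and 261 CPM in cortex and 50.7, 67.2 and 134 CPM in prefrontal cortex. All 11 cortex libraries of S100b stood above all prefrontal libraries, a 2.68-fold difference (adjusted p = 1.1e-07, without 2.66).

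**Figure D2:**
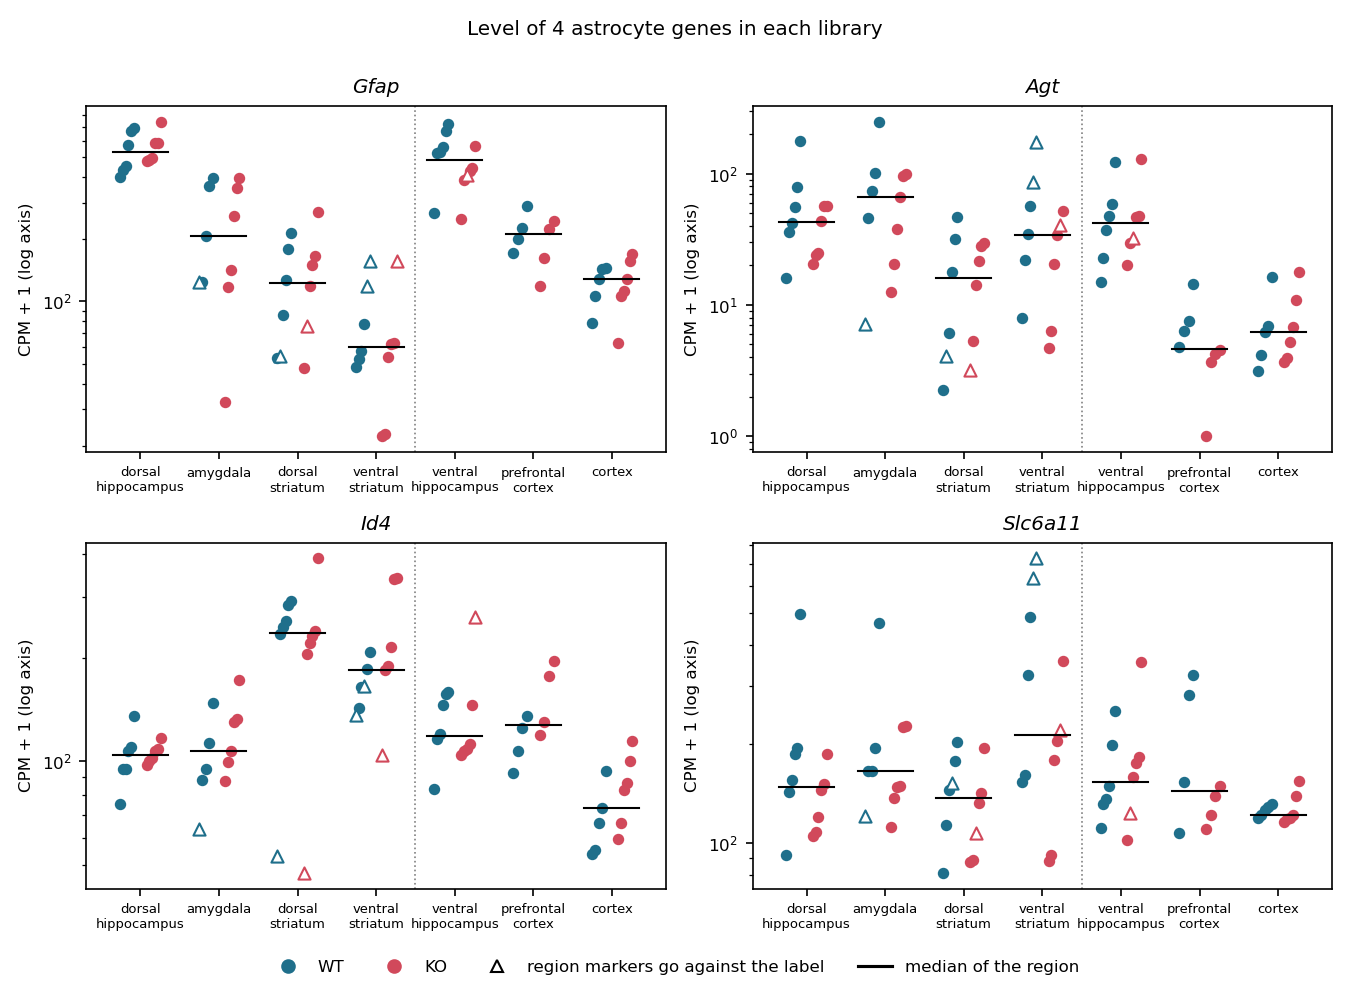
CPM + 1 of Gfap, Agt, Id4 and Slc6a11 in each library by region, on a log axis, with bars at the median and triangles for the 7 libraries whose region markers go against their labels. The dotted line divides the deeper from the shallower regions; all 12 dorsal hippocampus points of Gfap lie above every point of the other deeper regions.

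Of the secreted members, Agt, which encodes the precursor of angiotensin, ranged most between libraries of the same region. Agt was 6.18, 65.6 and 248 CPM in amygdala, 15.1, 41.8 and 175 CPM in dorsal hippocampus and 3.72, 33.3 and 172 CPM in ventral striatum. In dorsal striatum it was 1.24, 15.0 and 45.6 CPM. These ranges overlapped in every pair of deeper regions.

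Amygdala was higher for Agt by 1.11 ± 0.39 (adjusted p = 0.018), and 1.45 (adjusted p = 0.00073) without the 7 libraries. Dorsal striatum was lower, at -1.68 ± 0.46 (adjusted p = 0.0023), or -1.33 (adjusted p = 0.0071) without them. The amygdala call was lost without mouse 1 (0.89, adjusted p = 0.082) or without mouse 12 (0.79, adjusted p = 0.11). The 172 CPM value in ventral striatum belonged to the library of male WT mouse 13, which had the lowest striatal score of that region.

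In the shallower set Agt was 13.9, 41 and 127 CPM in ventral hippocampus, 2.16, 5.17 and 16.6 CPM in cortex and 0, 3.64 and 13.5 CPM in prefrontal cortex. Ventral hippocampus stood 3.02 ± 0.31 above the other regions (adjusted p = 2.6e-09, without 3.03), and all 12 of its libraries lay above every prefrontal library. The lowest prefrontal library held no Agt count, and cortical and prefrontal values rest on few counts.

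The other secreted members moved less. Apoe was higher in dorsal hippocampus by 0.56 ± 0.09 (adjusted p = 7.9e-07, without 0.53) and lower in dorsal striatum, at -0.40 ± 0.09 (adjusted p = 0.00039, without -0.35). Clu, an extracellular chaperone, was higher in dorsal hippocampus by 0.35 ± 0.07 (adjusted p = 3.5e-05, without 0.36) and in ventral hippocampus by 0.34 ± 0.07 (adjusted p = 0.00063, without 0.37). Mfge8, which tags debris for uptake by phagocytes, was high in amygdala and low in dorsal hippocampus within the deeper set, at 0.51 ± 0.08 (adjusted p = 8.4e-07, without 0.53) and -0.22 ± 0.08 (adjusted p = 0.02, without -0.22). Mfge8 did not pass the joint test in the shallower set (adjusted p = 0.099). Sparcl1 did not pass the joint test in the deeper set (adjusted p = 0.29), was higher in dorsal hippocampus by 0.24 (adjusted p = 0.004) without the 7 libraries, and was lower in prefrontal cortex, at -0.32 ± 0.08 (adjusted p = 0.0018, without -0.32).

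Among transcription factors and receptors, Id4 ran against Gfap in the deeper set, while in the shallower set both were lower in cortex. Id4, an inhibitor of bHLH factors that is also made by neural progenitors and some neurons, was 46.5, 235 and 387 CPM in dorsal striatum and 103, 184 and 340 CPM in ventral striatum. It was 74.1, 104 and 135 CPM in dorsal hippocampus and 62.7, 106 and 171 CPM in amygdala. The lowest dorsal striatum value came from a library whose markers went against its label, and without such libraries the range there began at 203 CPM, above every dorsal hippocampus library.

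Id4 was higher in dorsal striatum by 0.78 ± 0.16 (adjusted p = 0.00012), and by 0.95 (adjusted p = 1.2e-09) without the 7 libraries. Dorsal striatum exceeded dorsal hippocampus in 10 of 12 mice, and in 10 of 10 without those libraries. Id4 was also higher in ventral striatum, by 0.49 ± 0.17 (adjusted p = 0.017, without 0.54), and lower in cortex, at -0.74 ± 0.14 (adjusted p = 5.1e-05, without -0.69). The share of Id4 RNA that comes from neurons was not tested.

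Sox9, the factor that maintains astrocyte identity, was 19.8, 25.9 and 32.3 CPM in dorsal hippocampus and 8.24, 14.9 and 21.3 CPM in ventral striatum. Sox9 was higher in dorsal hippocampus by 0.48 ± 0.09 (adjusted p = 2.8e-05, without 0.50) and in amygdala by 0.37 ± 0.10 (adjusted p = 0.0015, without 0.42), and lower in ventral striatum, at -0.57 ± 0.10 (adjusted p = 1.5e-05, without -0.76). Its striatal levels were thus the low end, opposite to Id4. Fgfr3, a fibroblast growth factor receptor of astrocytes, was higher in amygdala by 0.32 ± 0.09 (adjusted p = 0.0047, without 0.39) and lower in dorsal striatum, at -0.30 ± 0.09 (adjusted p = 0.0079, without -0.33). Ntsr2, a neurotensin receptor, was higher in dorsal hippocampus by 0.38 ± 0.10 (adjusted p = 0.0016, without 0.42). Ndrg2 had the smallest range of the list in the deeper set, 0.04 between its highest and lowest region, yet was lower in prefrontal cortex, at -0.83 ± 0.10 (adjusted p = 1.2e-07, without -0.81).

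Of the transmitter uptake genes, Slc1a2, the main glutamate transporter, spanned 0.37 on the log2 scale between its highest and lowest deeper region, and Slc1a3, its partner, 0.16 (joint adjusted p = 0.46). Glul spanned 0.67, Slc6a13 0.73 and Slc6a11 0.91. Among the shallower regions the spans were 0.27 for Slc1a2, 0.35 for Slc1a3, 0.26 for Glul, 0.36 for Slc6a11 and 0.74 for Slc6a13. Glul was lower in amygdala, at -0.54 ± 0.08 (adjusted p = 1.7e-07, without -0.54), and higher in dorsal striatum by 0.37 ± 0.07 (adjusted p = 3.2e-05, without 0.43) and dorsal hippocampus by 0.29 ± 0.07 (adjusted p = 0.00063, without 0.33). The ordering of Glul was therefore not that of Slc1a2, which was highest in dorsal hippocampus.

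Slc6a11, the main astrocytic GABA transporter, was 87.0, 212 and 729 CPM in ventral striatum, 111, 164 and 463 CPM in amygdala, 91.4, 147 and 495 CPM in dorsal hippocampus and 80.3, 136 and 201 CPM in dorsal striatum. A few very high libraries set the upper ends, and all 4 ranges overlapped. Slc6a11 was higher in ventral striatum by 0.75 ± 0.20 (adjusted p = 0.0023), but by 0.39 (adjusted p = 0.14) without the 7 libraries. It was lower in dorsal striatum, at -0.62 ± 0.21 (adjusted p = 0.014), or -0.53 (adjusted p = 0.037) without them and -0.50 (adjusted p = 0.055) without mouse 12. Ventral exceeded dorsal striatum in 10 of 12 mice, and in 6 of 8 without those libraries.

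Slc6a13 was 2.44, 5.13 and 10.5 CPM in dorsal hippocampus and 1.38, 2.40 and 8.81 CPM in amygdala. It was higher in dorsal hippocampus by 0.79 ± 0.20 (adjusted p = 0.0012, without 0.87). All 7 meningeal fibroblast genes tested were also higher there (median 1.24, all genes 26.4%). Their part in the Slc6a13 difference between regions was not tested. Neither amino acid exchanger, Slc7a10 (joint adjusted p = 0.79) nor Slc7a11 (joint adjusted p = 0.52), passed among the deeper regions, while in the fit without the 7 libraries Slc7a11 was higher in amygdala by 0.30 (adjusted p = 0.011) and lower in ventral striatum, at -0.32 (adjusted p = 0.019). Among the shallower regions Slc7a11 was higher in prefrontal cortex by 0.49 ± 0.14 (adjusted p = 0.0068, without 0.48).

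Of the 6 water, ion and junction genes, 4 were higher in dorsal hippocampus (all genes 26.4%) and 5 in ventral hippocampus (all genes 13%). Aqp4, the endfoot water channel, was 112, 167 and 247 CPM in dorsal hippocampus, 66.5, 101 and 137 CPM in dorsal striatum and 46.6, 87.4 and 145 CPM in ventral striatum. Aqp4 was higher in dorsal hippocampus by 0.83 ± 0.10 (adjusted p = 1.5e-09, without 0.87) and in ventral hippocampus by 0.66 ± 0.13 (adjusted p = 0.00015, without 0.67). In ventral striatum it was lower, at -0.46 ± 0.10 (adjusted p = 0.00055), and at -0.73 (adjusted p = 1.3e-07) without the 7 libraries. Of the gap junction genes, Gjb6 was higher in dorsal hippocampus by 0.51 ± 0.14 (adjusted p = 0.0017, without 0.65) and Gja1 by 0.27 ± 0.09 (adjusted p = 0.0093, without 0.30). Cldn10, a claudin, was higher there by 0.58 ± 0.10 (adjusted p = 4.6e-06, without 0.61) and lower in prefrontal cortex, at -0.68 ± 0.13 (adjusted p = 0.00017, without -0.67).

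Slc4a4, the sodium-bicarbonate cotransporter, and Mlc1, a membrane protein of perivascular endfeet, were the 2 that were not higher in dorsal hippocampus. Slc4a4 was 103, 133 and 221 CPM in amygdala, 144, 221 and 275 CPM in dorsal hippocampus, 126, 247 and 279 CPM in dorsal striatum and 164, 220 and 333 CPM in ventral striatum. Amygdala was low, at -0.75 ± 0.11 (adjusted p = 1.9e-07, without -0.75), and lower than ventral striatum in 11 of 11 mice. The ventral striatal difference of 0.32 ± 0.10 (adjusted p = 0.0077) did not pass without the 7 libraries, at 0.21 (adjusted p = 0.065). In the shallower set Slc4a4 was higher in ventral hippocampus, by 0.37 ± 0.10 (adjusted p = 0.0055, without 0.35). Mlc1 did not pass the joint test in the deeper set (adjusted p = 0.68), and was higher in dorsal striatum by 0.20 (adjusted p = 0.033) without the 7 libraries.

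Of the 5 metabolic genes, 4 were higher in cortex (all genes 19.4%) and 4 lower in prefrontal cortex (all genes 17.2%), and Cbs, a transsulfuration enzyme, passed in neither. Acsbg1, a long-chain acyl-CoA synthetase, was higher in cortex by 0.63 ± 0.10 (adjusted p = 9.6e-06, without 0.63) and lower in prefrontal cortex, at -0.73 ± 0.12 (adjusted p = 1.4e-05, without -0.71). Ppp1r3c, a glycogen-targeting phosphatase subunit, was lower in prefrontal cortex, at -0.83 ± 0.13 (adjusted p = 1.2e-05, without -0.82), and Aldh1l1, a folate enzyme, higher in cortex by 0.65 ± 0.12 (adjusted p = 7.8e-05, without 0.65). Pla2g7, which inactivates platelet-activating factor, was 155, 193 and 230 CPM in ventral hippocampus, 125, 167 and 186 CPM in cortex and 79.5, 102 and 157 CPM in prefrontal cortex. Pla2g7 was also higher in dorsal hippocampus, by 0.60 ± 0.08 (adjusted p = 5.1e-08, without 0.65).

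Of 20 further astrocyte genes, 15 passed the joint test in each set, where 76.6% of all genes passed in the deeper set and 50.8% in the shallower set. In dorsal hippocampus 7 were higher and 1 lower (all genes 26.4% and 25.5%). In prefrontal cortex 1 was higher and 12 lower (all genes 18.1% and 17.2%). In cortex 11 were higher and 3 lower (all genes 19.4% and 18%), with a median difference of 0.27. Ventral hippocampus had 7 higher and 1 lower (all genes 13% and 12.9%), with a median of 0.18. By these medians cortex, and not ventral hippocampus, was the high region of the shallower set for the further genes. Hes5, a Notch target, was higher in amygdala by 1.39 ± 0.12 (adjusted p = 4.9e-12), and Slc25a18, a mitochondrial glutamate carrier, was higher there by 0.93. Among the shallower regions Chrdl1, a secreted BMP antagonist, was higher in cortex by 1.54 and lower in ventral hippocampus, at -2.05, and Sparc, a matrix protein, was higher in ventral hippocampus by 1.27. Of 15 genes linked to reactive astrocytes, 10 were tested in the deeper set, and 4 were higher and 0 lower in dorsal hippocampus (all genes 26.4% and 25.5%), among them Serpina3n, a serine protease inhibitor, at 1.82 ± 0.18 (adjusted p = 1.8e-11) and Cd109 at 2.37.

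The mean log2(CPM + 1) of the 31 genes differed little between regions beside its spread between libraries. It was 7.22 ± 0.25 (SD, n = 12) in dorsal hippocampus and 7.34 ± 0.24 (SD, n = 12) in ventral hippocampus. The lowest was 6.91 ± 0.40 (SD, n = 12) in ventral striatum, where single libraries ran from 6.13 to 7.55. In that region the 3 highest libraries were female WT mouse 11 at 7.55, male WT mouse 13 at 7.48 and male KO mouse 10 at 7.13, which are the 3 with the lowest striatal scores. The lowest was male KO mouse 2 at 6.13, with a striatal score of 9.07.

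**Figure D3:**
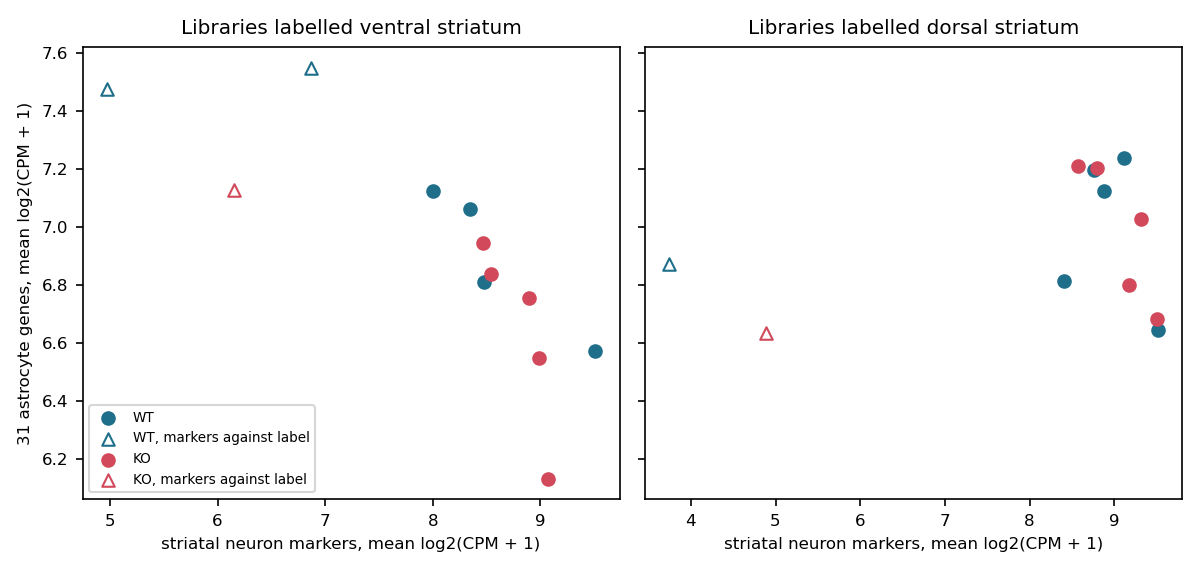
Mean log2(CPM + 1) of the 31 astrocyte genes against the mean log2(CPM + 1) of 7 striatal neuron genes, each point a library, in ventral and in dorsal striatum, by genotype. In ventral striatum the 3 libraries with striatal scores of 4.97, 6.15 and 6.87 have the 3 highest astrocyte means; in dorsal striatum the libraries at 3.75 and 4.88 do not.

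The study asked whether loss of Acss2 changes transcripts in drinking mice, and its title points to males and the ventral striatum. In 6 of the 7 regions no member changed between KO and WT at an adjusted p under 0.05. Acss2 was the only gene called there, which is 0.00675% of genes tested in amygdala, 0.00977% in cortex, 0.00702% in dorsal hippocampus, 0.00702% in dorsal striatum, 0.00951% in ventral hippocampus and 0.00721% in ventral striatum. In prefrontal cortex 1 of 30 tested members was called, with 0.0973% of all genes. At an unadjusted p under 0.05, 3 members were lower in amygdala (all genes 1.37%), 1 higher and 1 lower in cortex (all genes 3.13% and 3.41%), 1 higher in dorsal hippocampus (all genes 1.55%), 2 lower in dorsal striatum (all genes 0.934%) and 2 lower in ventral hippocampus (all genes 2.44%). Without the libraries against their labels, the lower counts were 4 in amygdala (all genes 2.28%), 2 in dorsal striatum (all genes 1.31%) and 3 in ventral hippocampus (all genes 2.46%), and 0 were called. The members' median differences, with and without them, were -0.17 and -0.19 in amygdala, -0.04 and -0.07 in dorsal striatum and -0.10 and -0.15 in ventral hippocampus.

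Ventral striatum had the largest KO shift of the list, without a call. Of 31 members, 27 were lower in KO (all genes 49.8%), with a median of -0.40 beside 0.00 over all genes. At an unadjusted p under 0.05, 14 members were lower and 0 higher, where 3.65% of all genes were lower and 3.62% higher, but the smallest adjusted p was 0.648. Of the 3 ventral striatum libraries that went against their labels, 2 were WT and had the highest astrocyte means of the region. Without those 3, 27 of 31 were still lower (all genes 51.0%), with a median of -0.27. At an unadjusted p under 0.05, 3 were then lower and 1 higher, where 1.92% of all genes were lower and 1.94% higher.

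Slc4a4 (chromosome 5, 88886818 to 89239653, plus strand, GRCm38) had the smallest p of the members in ventral striatum. Slc4a4 was 203, 299 and 333 CPM in the 6 WT libraries and 164, 206 and 230 CPM in the 6 KO libraries. These ranges overlapped from 203 to 230 CPM, and the KO median lay within the WT range. It differed by -0.49 ± 0.13 (adjusted p = 0.648), and by -0.39 ± 0.15 (adjusted p = 0.974) without the 3 libraries. Slc7a10, a neutral amino acid exchanger, was 24, 35.9 and 48.5 CPM in WT and 14.6, 20.8 and 36.8 CPM in KO, at -0.61 ± 0.22 (adjusted p = 0.648) and -0.57 ± 0.25 without them.

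Agt and Slc6a11 had the largest fitted differences there and depended most on those libraries. Agt went from -1.18 ± 0.70 to -0.19 ± 0.73, and Slc6a11 from -1.08 ± 0.43 to -0.48 ± 0.46, in each case without the 3 libraries. Id4 leaned the other way, at 0.53 ± 0.22 without the 3 libraries (adjusted p = 0.974). The mean of the 31 genes was 6.72 ± 0.35 (SD, n = 6) in KO and 7.10 ± 0.38 (SD, n = 6) in WT, and 6.64 ± 0.32 (SD, n = 5) and 6.89 ± 0.25 (SD, n = 4) without them. Striatal neuron markers ran the other way, 7 of 7 higher in KO with a median of 0.43 and none called, and the 11 oligodendrocyte genes had a median of -0.10. Of the 20 further astrocyte genes, 18 were lower in KO (median -0.34, all genes 49.8%) and 0 were called. Markers of some other cells were lower in KO without a call: 5 of 6 choroid plexus genes (median -0.91), 4 of 5 oligodendrocyte precursor genes (median -0.28), 4 of 5 meningeal fibroblast genes (median -0.33) and 8 of 10 microglial genes (median -0.16). The part of tissue composition in the ventral striatal shift was not tested further.

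**Figure D4:**
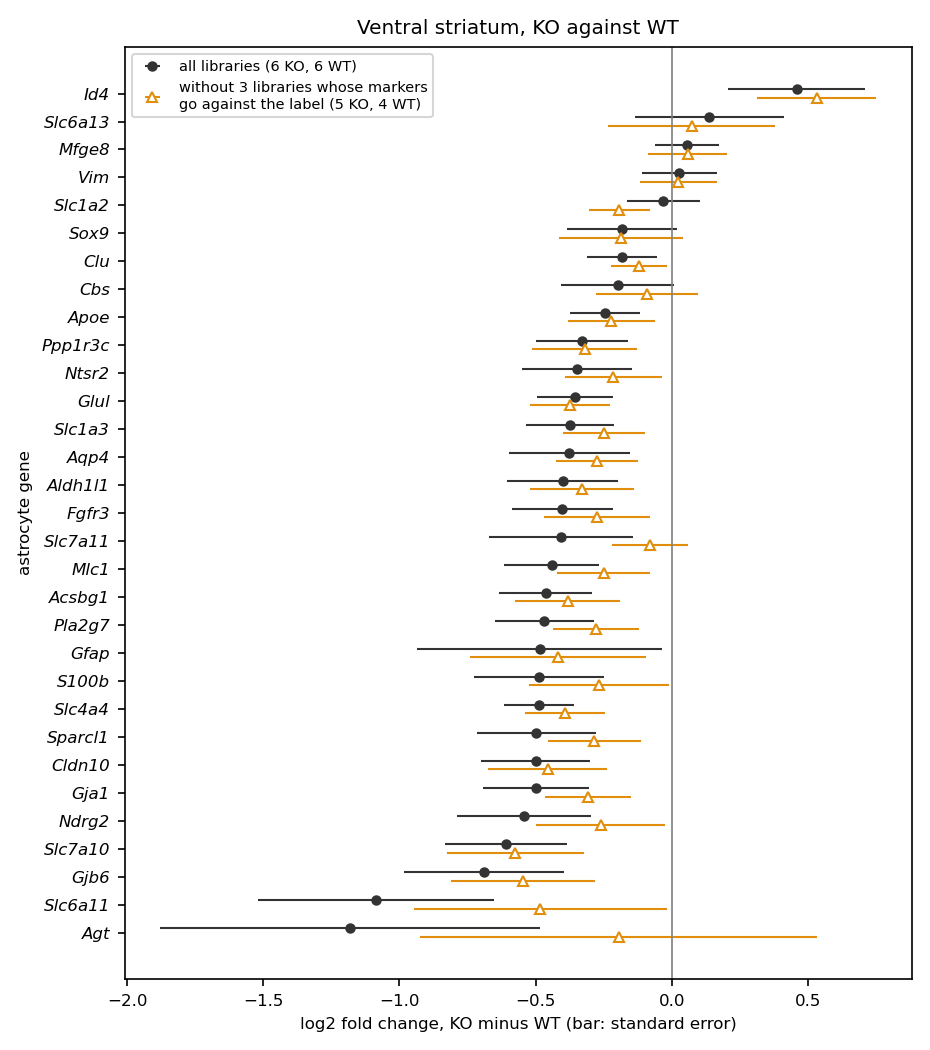
KO minus WT difference (log2, bars are SE) of the 31 astrocyte genes in ventral striatum, with all 12 libraries and without the 3 whose region markers go against their labels. The points lie left of 0 for 27 of 31 genes in both fits, and Agt and Slc6a11 move furthest between them.

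In prefrontal cortex, 23 of 30 tested members were lower in KO (all genes 49.4%), with a median of -0.21. At an unadjusted p under 0.05, 8 were lower and 1 higher, where 4.6% of all genes were lower and 3.97% higher. Of the 20 further astrocyte genes, 17 were lower in KO (median -0.30) and 0 were called. Slc6a13 (chromosome 6, 121300227 to 121337733, plus strand, GRCm38) was the member called. It stood at 7.34, 20.1, 31 and 47.2 CPM in the 4 WT libraries and 0.814, 2.11, 3.55 and 5.27 CPM in the 4 KO libraries. These rest on 6, 19, 38 and 50 counts in WT and 1, 2, 4 and 6 in KO, and the groups did not overlap. The difference was -2.98 ± 0.53 (adjusted p = 0.0473).

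Markers of meningeal fibroblasts, cells that carry Slc6a13, moved with it. Their 8 genes summed to 104, 123, 140 and 261 CPM in WT and to 29.3, 49.2, 71.9 and 78.1 CPM in KO, with 0 of 8 at 0 in each WT library and 0 to 2 of 8 at 0 in KO. The 6 fibroblast genes tested were all lower in KO, with a median of -1.51 and none called. Striatal neuron genes were higher in KO prefrontal libraries (median 2.57, 5 of 7 called), and so were 11 of 11 oligodendrocyte genes (median 1.38, none called). Their part in the Slc6a13 difference was not tested.

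**Figure D5:**
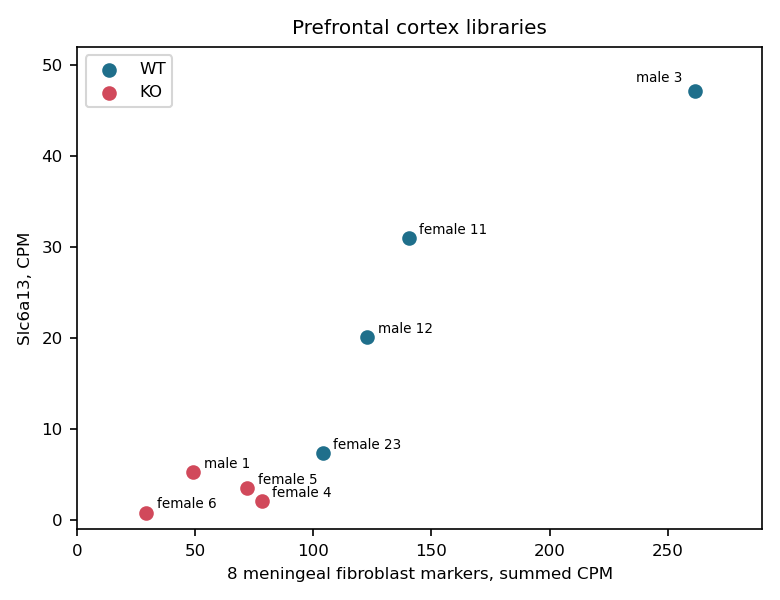
Slc6a13 CPM against the summed CPM of 8 meningeal fibroblast genes in the 8 prefrontal cortex libraries. The 4 WT libraries lie at 104 to 261 CPM of fibroblast genes and 7.34 to 47.2 CPM of Slc6a13, the 4 KO libraries at 29.3 to 78.1 and 0.814 to 5.27.

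Slc7a11 was next in prefrontal cortex, at 50.2, 88.9, 90.6 and 92.2 CPM in WT and 34.2, 39.1, 41.3 and 52.4 CPM in KO, a difference of -0.92 ± 0.21 (adjusted p = 0.0967). Its lowest WT value, the only overlap with KO, came from the library labelled female WT mouse 23, whose sex-chromosome genes go against its label. Striatal scores were 5.87 to 7.48 in the 4 KO and 3.61 to 4.70 in the 4 WT prefrontal libraries. Their part in the differences given here was not tested. Without the library labelled female WT mouse 23, 4 members were called among 0.67% of all genes. They were Slc6a13 at -3.33 (adjusted p = 0.0043), Slc7a11 at -1.15 (adjusted p = 0.016), Slc6a11 at -1.03 (adjusted p = 0.042) and Aqp4 at -1.01 (adjusted p = 0.043). The Slc6a13 call was lost on leaving out mouse 1, 4, 5, 6 or 11, with adjusted p from 0.0895 to 0.347.

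In the other regions the 2 members with the smallest p did not pass. In amygdala Gjb6 was 51.4, 54.6, 60.8, 69.9 and 83.6 CPM in the 5 WT libraries and 27.9, 47.9 and 56.3 CPM (lowest, median, highest) in the 6 KO libraries, at -0.53 ± 0.15 (adjusted p = 0.994, without -0.54). S100b was 103, 142, 156, 195 and 199 CPM in WT and 81.9, 121 and 164 CPM in KO, at -0.49 ± 0.16 (adjusted p = 0.994, without -0.58). For both genes the KO and WT libraries overlapped.

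In dorsal hippocampus Slc1a3 was 538, 603 and 716 CPM in KO and 369, 511 and 575 CPM in WT, a difference of 0.29 ± 0.12 (adjusted p = 1.00). In dorsal striatum Slc1a3 was 426, 462 and 526.3 CPM in KO and 473, 564 and 731 CPM in WT, at -0.28 ± 0.10 (adjusted p = 1.00, without -0.22). Mfge8 was 111, 122 and 133 CPM in KO and 115, 153 and 169 CPM in WT there, at -0.29 ± 0.10 (adjusted p = 1.00, without -0.23). The signs of the Slc1a3 values were thus opposite in these regions, and that difference was not tested. In dorsal hippocampus Slc6a11 was 104, 132 and 185 CPM in KO and 91.4, 170 and 495 CPM in WT, at -0.59 ± 0.31 (adjusted p = 1.00).

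In ventral hippocampus Vim was 19.7, 32.1 and 44.8 CPM in KO and 24.6, 43.7 and 96.9 CPM in WT, at -0.68 ± 0.27 (adjusted p = 0.965, without -0.60). Without a count filter Vim passed there, at -0.66 (adjusted p = 0.0499). Sox9 was 15.6, 24.1 and 30.6 CPM in KO and 19.9, 37 and 38.9 CPM in WT, at -0.45 ± 0.19 (adjusted p = 0.965, without -0.45). The KO and WT ranges overlapped for both.

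In cortex Ntsr2 was 69.7, 87.6, 89.6, 103 and 126 CPM in the 5 WT libraries and 97.6, 116 and 163 CPM in the 6 KO libraries, at 0.31 ± 0.14 (adjusted p = 0.756). Slc7a11 was 25.8, 37.7, 37.9, 39.9 and 62.2 CPM in WT and 25.6, 31.8 and 36.4 CPM in KO, at -0.40 ± 0.20 (adjusted p = 0.756). These ranges overlapped as well.

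Counts were also summed per mouse over dorsal hippocampus and both striatal regions, which gave 12 mice. Of 31 members 25 were lower in KO, with a median of -0.09 and 0 called, where 0.00605% of all genes were called, and 2 were lower at an unadjusted p under 0.05, where 1.87% of all genes were. Of all genes 49.7% were lower in KO. Slc6a11 was 96.1, 140 and 240 CPM in the 6 KO mice and 138, 253 and 304 CPM in the 6 WT mice, at -0.68 ± 0.21 (adjusted p = 1.00). Agt was 14.7, 24.5 and 45.6 CPM in KO and 21.7, 46.9 and 66.5 CPM in WT, at -0.79 ± 0.26 (adjusted p = 1.00). Without the mice that held a summed library against its label, the values were -0.40 for Slc6a11 and -0.29 for Agt.

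Males and females did not differ in any member by these sums, where 0.0545% of all genes were called. Male minus female was negative for 26 of 31 members (all genes 50.1%), with a median of -0.09. At an unadjusted p under 0.05, 1 was lower in males, where 1.95% of all genes were. In the 6 regions with enough mice of each kind, 0 members and 0% of all genes had a sex by genotype difference at an adjusted p under 0.05. At an unadjusted p under 0.05 the members numbered 1 in amygdala (all genes 4.42%), 3 in cortex (5.41%), 0 in dorsal hippocampus (1.33%), 2 in dorsal striatum (4.76%), 3 in ventral hippocampus (6.63%) and 0 in ventral striatum (3.84%). By direction alone, KO was lower for 9 of 31 members in female (all genes 49.6%) and 26 of 31 in male amygdala (all genes 48.2%). In ventral hippocampus KO was lower for 10 of 30 in females (all genes 49.4%) and 27 of 30 in males (all genes 51.5%). In ventral striatum KO was lower for 30 of 31 members in females (median -0.28, all genes 54.6%) and 26 of 31 in males (median -0.50, all genes 47.6%). These fits held 2 or 3 libraries of each sex and genotype and kept those against their labels. Of the 2 female WT amygdala libraries, that of mouse 23 was among the latter.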

How the data were processed

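The authors deposited raw read counts per gene, in a table for each sex, and all 78 library columns were used (0 left out). The submitters' processing notes name STAR 2.5.2a, SAMtools 1.1, HTSeq 0.6.1, DESeq2, R 4.0.2 and GRCm38, and filters were not given in the sources used here. Samples were grouped by region, sex, genotype and mouse from their titles.

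Tests were the quasi-likelihood test of edgeR 4.0.16 (in R 4.3.3, beside limma 3.58.1) on these counts, with TMM normalization, filterByExpr (minimum count 10, minimum total 15) and Benjamini-Hochberg adjustment over all genes tested, at 0.05. Region fits had sex and genotype as covariates. KO fits were made per region with sex as a covariate, and on counts summed per mouse over dorsal hippocampus, dorsal striatum and ventral striatum. Interactions were fitted where each sex and genotype had at least 2 libraries. P-values of single contrasts are two-sided, and the joint tests compare all regions of a set at once. Each mouse enters a KO, sex or interaction fit once, so those p-values measure the spread between mice. The main region fits hold several libraries of a mouse without a mouse block. Their p-values therefore measure the spread between libraries and ignore the pairing within a mouse. CPM used column totals, means of log values a pseudocount of 1, and positions and exonic lengths GENCODE M21 (GRCm38). The edgeR fits were tested on simulated counts.

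The members and lists were chosen with earlier results of these data known. All members are named. Values by library are given for the 10 (deeper set) and 5 (shallower set) with the widest regional range past the joint test, and for KO for each member called and the 2 with the smallest p in each fit; Agt and Slc6a11 in ventral striatum and the other members were described after their values were seen.

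Mouse numbers come from the labels and mark the same animal across regions. Same-mouse libraries correlated in their deviations from group means by 0.0491 on average (69 pairs, -0.401 to 0.612) in the deeper set and by -0.0143 (24 pairs, -0.136 to 0.101) in the shallower set. Of 73 pairs of replicate libraries, 0 were identical, with a chi-square per gene of 1.64 to 74.3. The biological coefficient of variation had a median of 0.204 over members and 0.173 over all genes (deeper set), and 0.167 and 0.140 (shallower set). Alternatives used other scalings, DESeq2 1.42.0, no count filter, a single genotype or sex, a mouse block and left-out libraries.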

Additional observations from a re-analysis of the deposited data

Results flagged for a closer look

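Within 51 groups of 4 to 10 samples of the named members, 3 values stood apart from the rest of their group by Dixon's criterion, which chance meets in about 1 of 20 groups. Slc6a11 was at 495 CPM in the dorsal hippocampus of female WT mouse 23, where the next of the 6 WT libraries was at 193 CPM. That library also had the lowest dentate gyrus score of its region, 5.30. Slc7a11 was at 50.2 CPM in prefrontal cortex, in the library labelled female WT mouse 23, where the other 3 WT libraries began at 88.9 CPM. Its sex-chromosome genes go against its label. Slc6a11 in counts summed per mouse was at 240 CPM in female KO mouse 4, where the next of the 6 KO mice was at 146 CPM. None of the 18 comparisons of opposite direction between sexes met the criterion.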

How the results depend on the processing

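Counts of members are given here in the order of the regions, and no call of a named member reversed its direction. The KO minus WT difference in the members' mean log value did change sign on leaving out single mice in some regions. It ran from -0.018 to 0.068 in cortex, from -0.098 to 0.079 in dorsal hippocampus and from -0.122 to 0.0037 in dorsal striatum. With WT libraries only, the joint counts were 12 (deeper set) and 16 (shallower set). The higher counts were 1 in amygdala, 3 in cortex, 8 in dorsal hippocampus, 1 in dorsal striatum and 9 in ventral hippocampus, and the lower counts 3, 4, 1 and 2 in the first 4 of these, 6 in prefrontal cortex and 3 in ventral striatum. With KO libraries only, the lower counts were 2 in amygdala, 2 in cortex, 1 in dorsal hippocampus, 4 in dorsal striatum and 15 in ventral striatum, where 0 were higher. Both settings use fewer libraries, and the share of all genes passing in them was not taken. These counts therefore do not set the members apart from other genes. Without the 7 libraries against their labels, added after the data were seen, dorsal striatum had 4 lower, and ventral striatum 1 higher and 17 lower.

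Without a count filter, 6 members differed between KO and WT in prefrontal cortex (of 367 genes, 1.58% of those tested) and 1 in ventral hippocampus (Vim, adjusted p = 0.0499), 1 had a sex by genotype difference in ventral hippocampus, and prefrontal cortex had 5 higher. In prefrontal cortex the KO count was 0 in females only and 4 without the library labelled female WT mouse 23. Leaving out each mouse gave 0 to 4 for that count, 7 to 11 for cortex higher (7 without mouse 5, 6 or 10), 1 to 2 for dorsal hippocampus lower (1 without mouse 23), 4 to 7 for dorsal striatum lower (4 without mouse 10) and 11 to 21 for prefrontal cortex lower (11 without mouse 3). The share of all genes was not taken for these regional counts. Nor was it taken without a count filter for ventral hippocampus or for prefrontal cortex higher.

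With the mouse as a replicate block, all 16 regional counts stayed within 1.5 times, and Slc6a13 in amygdala passed, at -0.53 (adjusted p = 0.035). Other size factors, TMM scaling of the means, DESeq2's test, a pseudocount of 0.1 and males only kept every count and mean within its limits. Of 845 alternative values of named members, 818 kept their call, 22 lost it and 5 gained it. No member averaged under 5 CPM, so leaving out such members changed nothing. In the shallower set, values under 2.44 to 4.76 CPM rest on fewer than 3 counts.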
